A study of Mus musculus with 8 samples.

Results

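The 8 genes described here encode inflammasome sensors (*Nlrp1b*, *Nlrp3*, *Nlrp6*, *Aim2*), their adaptor ASC (*Pycard*) and the caspases that inflammasomes activate or work beside (*Casp1*, *Casp4*, *Casp8*). They were chosen by symbol from the 15859 genes of the deposited counts, and all 8 were present and passed the filter on low counts. *Nlrp1b* was also selected on its difference between genotypes in the untreated mice. Its values in those mice are therefore given as a description without a test, as are those of the other 7 genes in the same comparison. The data are RNA-seq of distal colon from 8 males on a mixed BALB/c x 129SvEV background, with 2 mice per group. The day 0 groups were untreated WT and untreated *Hsf1* null mice. The day 15 groups were WT and *Hsf1* null mice that received azoxymethane (AOM), a colon carcinogen, at 10 mg/kg at the age of 8 weeks, and then drank 1.5% dextran sulfate sodium (DSS), a polymer that damages the epithelial lining, for 5 days. All mice are labelled as 10 weeks old, and the labelled protocol stops right after DSS, whereas the sample titles place treated mice at day 15. Day 15 is used here. The null allele is carried in every cell of the body, and each value is from a piece of whole colon.

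Inflammasomes are protein complexes that assemble in the cytosol when a sensor detects microbial products or damage. NLRP1B is activated by bacterial proteases and is held inactive by DPP9, NLRP3 responds to disturbed ion balance, and AIM2 binds cytosolic DNA. NLRP6 is best known from intestinal epithelium, where goblet cells express it. ASC links a sensor to caspase-1, which cleaves pro-IL-1β, pro-IL-18 and the pore-forming gasdermin D. Caspase-11, the product of mouse *Casp4*, binds cytosolic lipopolysaccharide and cleaves gasdermin D directly, and caspase-8 starts extrinsic apoptosis and restrains necroptosis. *Nlrp1b* is among the most polymorphic of these genes between inbred mouse strains. The labels give 1 mixed strain for all 8 mice and no allele for any of them.

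HSF1 binds heat shock elements, so the window before the transcription start of *Nlrp1b* is shown here. The window of its adjacent paralog *Nlrp1a* is added for comparison. That of *Nlrp6*, the sensor with the most reads among the 8 genes, is also given. Sequences are from RefSeq on GRCm38.p6, written 5′ to 3′ on the strand of the gene, each with the 250 bases before the start, and capitals mark a heat shock element core (GAANNTTC). All 8 genes matched an entry.
*Nlrp1b*, chr11:71230734-71230983, minus strand: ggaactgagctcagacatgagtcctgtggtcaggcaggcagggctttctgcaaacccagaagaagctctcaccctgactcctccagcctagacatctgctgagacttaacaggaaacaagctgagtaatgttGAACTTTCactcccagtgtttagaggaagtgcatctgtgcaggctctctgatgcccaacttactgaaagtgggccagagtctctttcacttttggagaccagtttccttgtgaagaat
*Nlrp1a*, chr11:71144705-71144954, minus strand: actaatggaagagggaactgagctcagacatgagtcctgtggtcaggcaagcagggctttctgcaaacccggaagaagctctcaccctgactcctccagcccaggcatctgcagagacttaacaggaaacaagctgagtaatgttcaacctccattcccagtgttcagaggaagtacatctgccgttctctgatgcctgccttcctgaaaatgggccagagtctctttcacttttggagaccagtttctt
*Nlrp6*, chr7:140920652-140920901, plus strand: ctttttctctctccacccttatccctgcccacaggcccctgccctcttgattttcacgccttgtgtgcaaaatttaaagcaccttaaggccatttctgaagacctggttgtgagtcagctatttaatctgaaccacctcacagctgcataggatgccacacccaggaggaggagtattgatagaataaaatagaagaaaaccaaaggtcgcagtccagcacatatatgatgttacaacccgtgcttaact

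The core lay 118 bases before the start of *Nlrp1b*. The *Nlrp1a* window was 82.5% identical to that of *Nlrp1b* over 263 aligned columns, with 20 mismatches and 26 gap columns, and did not hold the core. Windows of 300 bases, 250 before and 50 after each start, were searched on both strands for the heat shock element core, an interferon regulatory factor element (GAAANNGAA) and a STAT element (TTCNNNGAA). The 8 genes had 11 such windows because *Nlrp1b*, *Nlrp3* and *Casp4* each have a second start. The heat shock core was in 2 of the 11, both of *Nlrp1b*, the other of them 42 bases after the second start, and in 7.86% of all 32851 windows. The other motifs were in 0 of the 11, against 8.56% and 8.30% of all windows, and no matches overlapped. A match describes letters only.

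*Nlrp1b* (chromosome 11, 71153102 to 71230733, minus strand) had the widest spread of the 8 genes among those with reads in every mouse. In the untreated WT mice it had 15.1 and 9.53 CPM (counts scaled to the effective library size), from 154 and 24 counts. Both untreated *Hsf1* null mice were far lower, at 0.411 and 0.719 CPM from 5 and 2 counts. The ratio of the means was 21.8, or 4.45 on the log2 scale. This was the difference on which the gene was chosen, and it rests on 7 counts in the null mice.

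At day 15 the order of the genotypes was the opposite one. The WT mice had 2.17 and 3.80 CPM of *Nlrp1b* (25 and 36 counts), whereas the *Hsf1* null mice had 21.9 and 4.01 CPM (141 and 30 counts). The groups did not overlap, but the second null mouse lay next to the WT mice and the first was the highest of all 8 mice. The log2 fold change of WT over null was -2.11 ± 0.72 (SE), and it was not called by edgeR (adjusted p = 0.121). Without replicate 1 of *Hsf1* null day 15 it was -0.44 (adjusted p = 0.787), and without replicate 2 it was -2.87 (adjusted p = 0.0212), so the value rests on 1 mouse. DESeq2 called it (adjusted p = 0.0354).

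Between days, the means of *Nlrp1b* went from 12.3 to 2.99 CPM in WT and from 0.565 to 12.9 CPM in *Hsf1* null mice. The null mean at day 15 was set mainly by replicate 1, with 141 of the 171 counts, while replicate 2 was at 4.01 CPM. No test is given because the untreated mice chose the gene. In the null mice the 53.3-fold span from the lowest to the highest of the 8 mice lay within 1 genotype. The mice at day 0 and day 15 are different animals, so no change within an animal was measured.

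The reads of *Nlrp1b* could be split with its paralogs on the same chromosome. Of its distinct 50-base stretches of transcript, 1.45% also lay in another gene, 1.21% in *Nlrp1a*. *Nlrp1a* had 6, 1, 0, 0, 4, 7, 1 and 9 counts in WT day 0, null day 0, WT day 15 and null day 15, with 2 mice each in that order, and the pseudogene *Nlrp1c-ps* had 6, 1, 0, 0, 0, 14, 0 and 0. Both were also at 0 in the 2 untreated null mice, where a count of 0 allows up to 0.246 and 1.08 CPM, and neither had enough reads to be tested. Adding both to *Nlrp1b* gave a log2 ratio of 4.56 at day 0 and -1.67 at day 15 (adjusted p = 0.177). That sum was chosen after seeing the data.

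Of the other genes that lie within 1 Mb of *Nlrp1b*, 40 were tested and 1 was called between genotypes at day 15, which is no more than the 3.17% of all genes. This was *Eno3*, the muscle enolase, with 85.9 and 43.2 CPM in WT mice, compared to 358 and 328 CPM in *Hsf1* null mice (log2 fold change -2.41 ± 0.41, adjusted p = 0.0219). At day 0, 8 neighbors lay higher in both WT mice and 7 lower, and 37.1% of all tested genes did not overlap. At day 15 the counts were 12 and 9, against 54.8% of all genes. In 1 neighbor, *Med31*, a subunit of the Mediator complex, every WT mouse lay below every null mouse over both days (highest WT value 15.2 CPM, lowest null value 15.6 CPM). Genotypes were separate in this way for 5.66% of all genes.

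**Figure D1:**
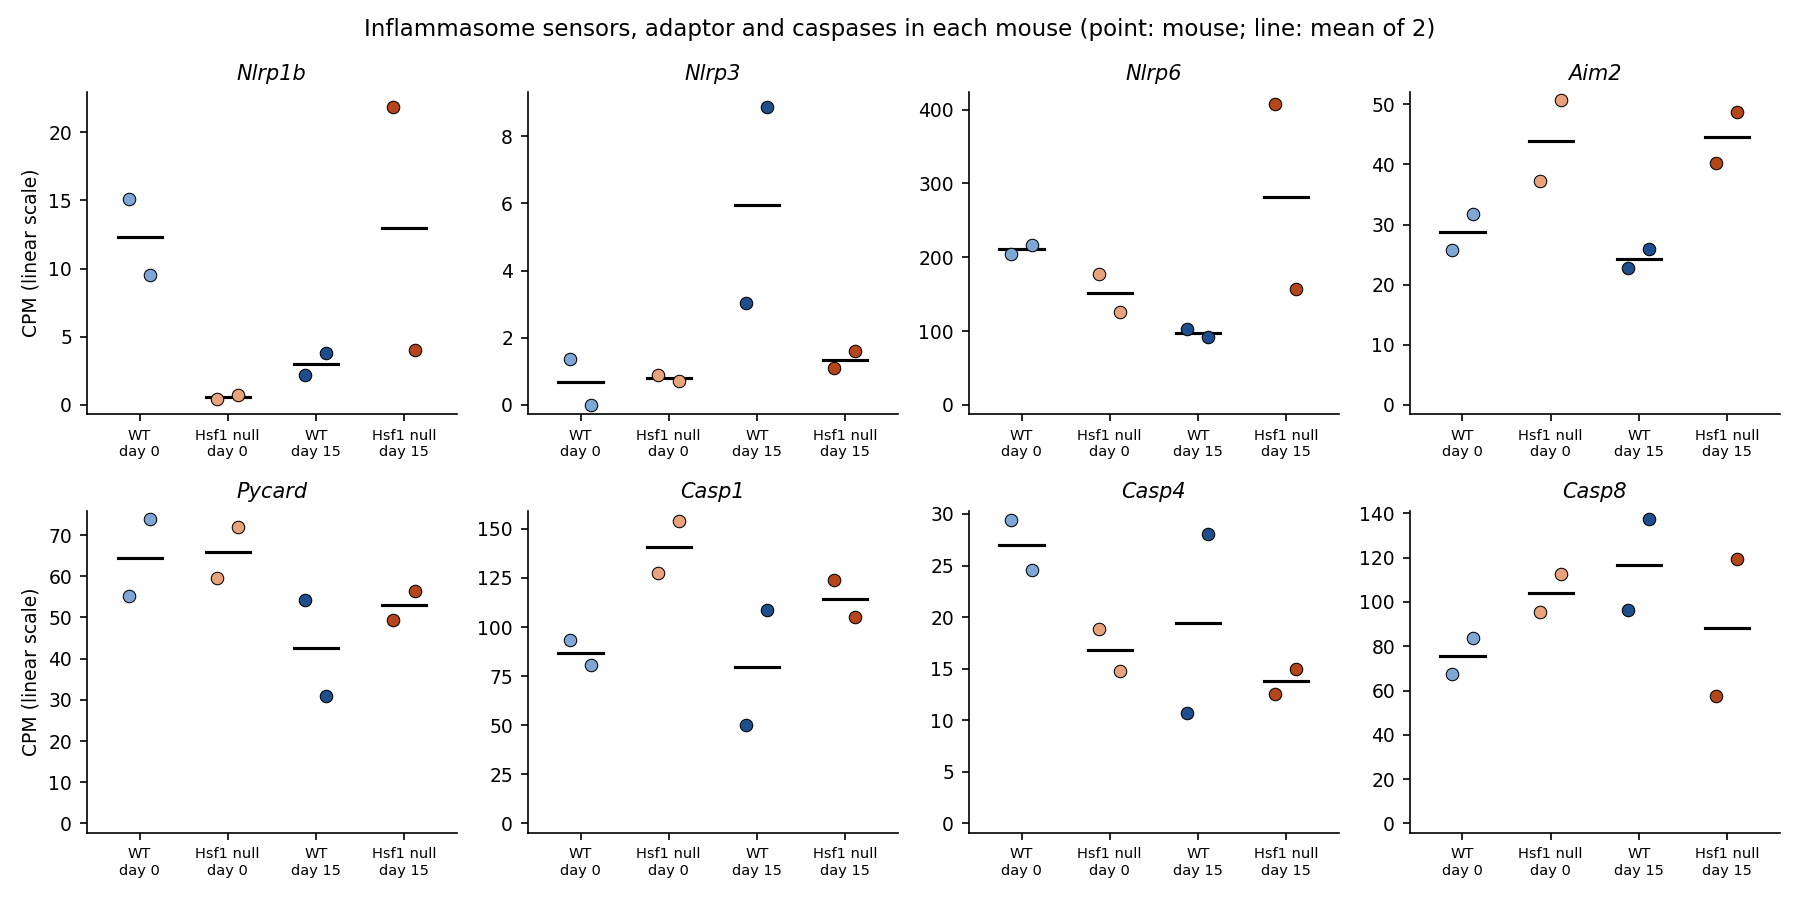
CPM (linear axis) of the 8 genes in each mouse, with 1 point per mouse and a line at the mean of 2 mice in each group. *Nlrp1b* was at or below 0.719 CPM in the untreated *Hsf1* null mice and spanned 4.01 to 21.9 CPM in the null mice at day 15, while *Aim2* was lower in both WT mice than in both null mice at each day.

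*Nlrp6* (chromosome 7, 140920902 to 140929192, plus strand) had 205 and 217 CPM in untreated WT mice and 177 and 126 CPM in untreated null mice. Treated WT mice had 103 and 92.6 CPM, and treated null mice 408 and 156 CPM. WT mice at day 15 were the lowest of the 4 groups and overlapped none of them. The log2 fold change of WT over null at day 15 was -1.53 ± 0.40 (adjusted p = 0.064), below the threshold of edgeR but called by DESeq2 (adjusted p = 0.00308). In WT mice the change from day 0 to day 15 was -1.11 ± 0.39 (adjusted p = 0.104, DESeq2 0.0435), and in null mice it was 0.89 ± 0.39 (adjusted p = 0.146, DESeq2 0.0907). The difference between these changes was -1.996 ± 0.55 (adjusted p = 0.400, DESeq2 0.0455). Replicate 1 of *Hsf1* null day 15 was again the highest mouse. Without it the genotype difference at day 15 was -0.68 (adjusted p = 0.346), and without replicate 2 it was -2.06 (adjusted p = 0.00711). The null change was 0.040 without replicate 1 (adjusted p = 0.944) and 1.42 without replicate 2 (adjusted p = 0.0487), so the higher null mean at day 15 rests on replicate 1. The difference of changes was -1.14 without replicate 1 (adjusted p = 0.905) and -2.53 without replicate 2 (adjusted p = 0.0352). The change in WT mice was called in the fits without replicate 1 or replicate 2 of *Hsf1* null day 15 (adjusted p = 0.0276 and 0.0261).

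Goblet cell, colonocyte and smooth muscle marker sums were, like *Nlrp6*, lowest in the WT mice at day 15. The 6 goblet cell markers summed to 18373 and 26611 CPM in WT day 0, 26001 and 21446 in null day 0, 6895 and 9067 in WT day 15, and 38680 and 18623 in null day 15. Of these 6, 5 had a negative log2 fold change of WT over null at day 15 and 6 a negative WT change, and edgeR called 3 in each. Of all tested genes, edgeR called 3.17% between genotypes at day 15, 7.74% between days in WT and 11.8% between days in null mice. The 5 absorptive colonocyte markers summed to 433 and 1160 CPM in WT day 15 and to between 1381 and 5055 CPM in the other mice. At day 0 they were lower in WT (2113 and 3964 CPM) than in null mice (4801 and 4507 CPM), the opposite order to *Nlrp6*. All 5 had negative values at day 15 and in the WT change, of which edgeR called 1 and 2, and 1 was called lower at day 15 in null mice. The 6 smooth muscle markers summed to 3462 and 2025 CPM in WT day 15 and to between 5013 and 9456 CPM in the other mice. All 6 had negative values at day 15 and in the WT change. Between genotypes edgeR called 0, with 5 at an unadjusted p under 0.05 (23.2% of all genes), and DESeq2 called 2 (8.41% of all genes). In the WT change edgeR called 5. All 10 general epithelial markers had a negative log2 fold change at day 15 (median -0.47). Of these, 0 were called by edgeR or DESeq2 and 0 had an unadjusted p under 0.05. In the WT change 6 of the 10 were positive. Their sums were 10514 to 24710 CPM over the 8 mice, and the WT mice at day 15 (15802 and 16963 CPM) were not the lowest. No marker of these 4 lists was at 0 in any mouse. Replicate 1 of *Hsf1* null day 15 had the highest goblet cell (38680 CPM), colonocyte (5055 CPM) and epithelial (24710 CPM) marker sums of the 8 mice. The same mouse had the lowest macrophage (425 CPM), B and plasma cell (231 CPM) and fibroblast (459 CPM) marker sums. In whole colon, fewer cells of a type and less RNA per cell cannot be told apart, and the part of these cell types in the *Nlrp6* values was not tested.

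*Nlrp3* (chromosome 11, 59541568 to 59566956, plus strand) was the least abundant of the 8. It had 14, 0, 11 and 2 counts in the untreated mice, 35 and 84 in WT day 15, and 7 and 12 in null day 15. In CPM this was 1.37 and 0 in WT day 0, 0.903 and 0.719 in null day 0, 3.04 and 8.87 in WT day 15, and 1.09 and 1.60 in null day 15. The WT mice at day 15 lay above all 6 other mice. The count of 0 in replicate 2 of WT day 0 allows up to 1.19 CPM. WT exceeded null at day 15 by 2.12 ± 0.84 on the log2 scale (adjusted p = 0.167). This was 1.16 without replicate 2 of WT day 15 (adjusted p = 0.643) and 2.70 without replicate 1 (adjusted p = 0.126), so its size rests on 1 mouse. The WT change from day 0 to day 15 was 2.66 ± 0.89 (adjusted p = 0.0882) and the null change 0.67 ± 0.95 (adjusted p = 0.662). Without replicate 2 of WT day 15 the WT change was 1.71 (adjusted p = 0.418). None of these passed the threshold in edgeR or DESeq2 fitted without a block, and the difference of changes was 1.99 ± 1.30 (adjusted p = 0.698). Without replicate 1 of WT day 0, the untreated WT group is the mouse at 0 counts and its fitted change depends on the prior count.

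Neutrophil, macrophage, T cell and B and plasma cell marker sums were, like *Nlrp3*, highest in the WT mice at day 15. The 8 neutrophil markers measured summed to 138 and 533 CPM in WT day 15 and to between 3.57 and 24.1 CPM in the other 6 mice. None was at 0 in WT day 15, while 1 to 4 of the 8 were at 0 in each other mouse. Several of them, such as *Ngp* with 132 and 271 counts in WT day 15 and 0 in the other 6 mice, passed the filter only through WT day 15, so no count of calls is given. The 13 monocyte and macrophage markers summed to 1675 and 2602 CPM in WT day 15 and to between 425 and 1196 CPM elsewhere. All 13 had a positive log2 fold change of WT over null at day 15 (median 1.62), of which edgeR called 3 and DESeq2 6, and 12 had a positive WT change (median 1.58), of which edgeR called 5 and DESeq2 9. The 7 T cell markers summed to 110 and 196 CPM in WT day 15 and to between 14.0 and 84.0 CPM elsewhere. All 7 had positive changes in both genotypes (median 1.70 in WT and 1.46 in null mice), of which edgeR called 1 in each and DESeq2 6 in WT and 2 in null mice. Between genotypes at day 15 all 7 were positive (median 1.26), and edgeR and DESeq2 each called 0. The 6 B and plasma cell markers summed to 3251 and 3590 CPM in WT day 15 and to between 231 and 1955 CPM elsewhere. All 6 had a positive log2 fold change of WT over null at day 15 (median 2.02), of which edgeR and DESeq2 each called 2. The WT change was positive for all 6 (median 1.79), of which edgeR called 0 and DESeq2 1. In null mice the change was positive for 4 of the 6, and edgeR called 1, as lower at day 15, and DESeq2 called 1. The 7 fibroblast markers did not follow this order, with 2381 and 2419 CPM in WT day 15 and 2553 CPM in 1 untreated WT mouse. These counts stand beside the shares of all genes given above for edgeR, and beside 8.41%, 12.1% and 15.3% for DESeq2. No macrophage, T cell or B and plasma cell marker was at 0 in any mouse, and the part of these cells in the *Nlrp3* values was not tested.

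**Figure D2:**
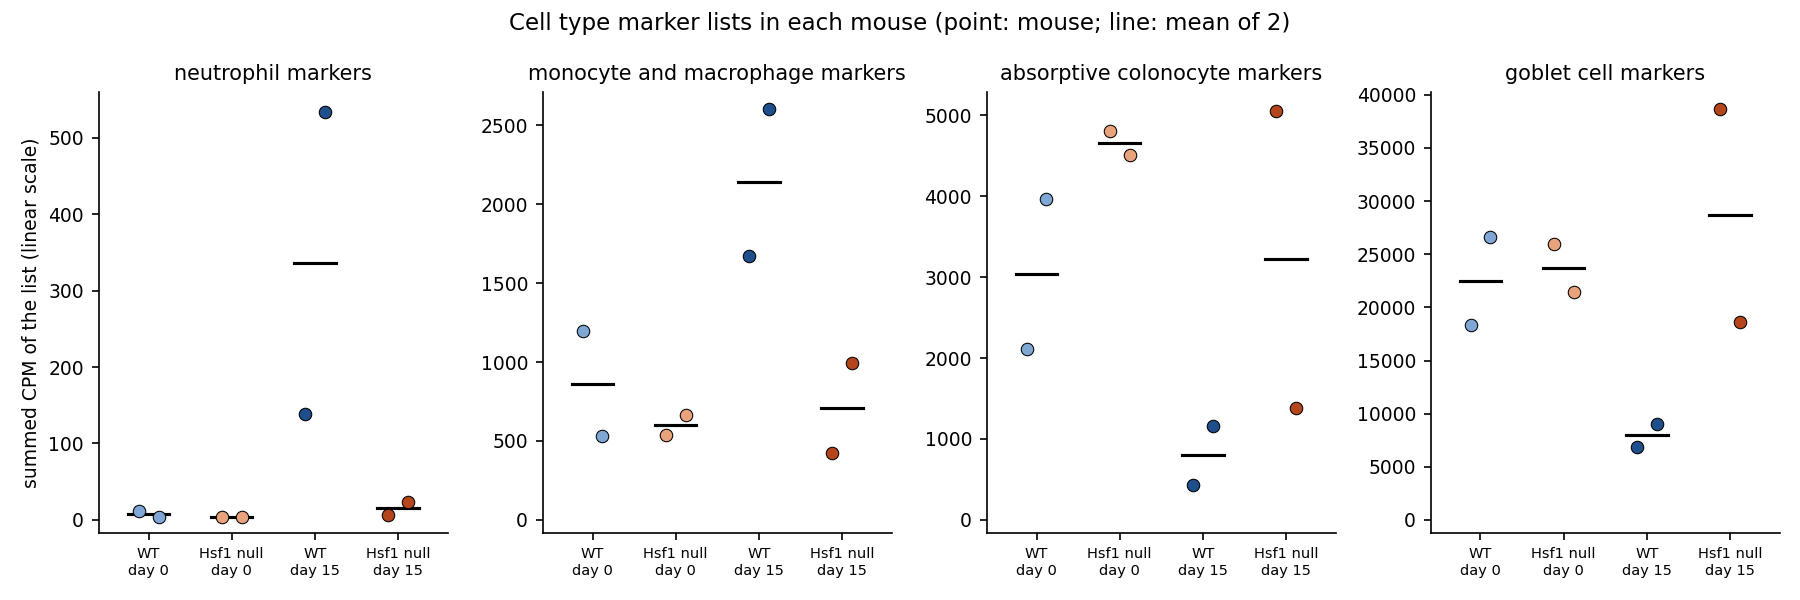
Summed CPM (linear axis) of 4 cell type marker lists in each mouse, with 1 point per mouse and a line at the mean of 2 mice. The WT mice at day 15 had the most neutrophil (138 and 533 CPM) and macrophage transcripts and the fewest goblet cell transcripts (6895 and 9067 CPM).

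*Aim2* (chromosome 1, 173350879 to 173466040, plus strand) had 25.8 and 31.8 CPM in WT day 0 and 37.2 and 50.7 in null day 0. At day 15 it had 22.8 and 25.9 CPM in WT and 40.3 and 48.7 in null mice. Every WT mouse lay below every null mouse over both days, a separation seen in 5.66% of all genes. At day 15 the log2 fold change was -0.87 ± 0.27 (adjusted p = 0.103). It was near 0 between days, at -0.23 ± 0.28 in WT (adjusted p = 0.624) and 0.03 ± 0.27 in null mice (adjusted p = 0.952).

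*Pycard* (chromosome 7, 127989708 to 127993867, minus strand), the adaptor ASC, lay between 31.1 and 73.8 CPM. Untreated mice had 55.2 and 73.8 CPM in WT and 59.7 and 71.9 in null. Treated mice had 54.4 and 31.1 CPM in WT and 49.5 and 56.4 in null. Within each genotype both treated mice were below both untreated mice, by small margins, and the changes were -0.59 ± 0.31 in WT (adjusted p = 0.247) and -0.31 ± 0.31 in null mice (adjusted p = 0.521). The genotypes overlapped at each day, with a log2 fold change of -0.31 ± 0.30 at day 15 (adjusted p = 0.576). Of its 50-base stretches 11.7% also lay in another annotated gene, most of them in *Gm45205*.

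*Casp1* (chromosome 9, 5298517 to 5307265, plus strand) and *Casp4* (chromosome 9, 5308828 to 5336783, plus strand) are adjacent but did not vary together over the 8 mice (Pearson's r = 0.14 of log2 CPM, as a description). *Casp1* had 93.2 and 80.6 CPM in WT day 0 and 127 and 154 in null day 0, with the WT mice lower. *Casp4* was in the opposite order in the same mice, at 29.4 and 24.6 CPM in WT and 18.9 and 14.7 in null mice. The log2 ratios of WT over null were -0.70 for *Casp1* and 0.68 for *Casp4*, given without a test. As background, 129 substrains carry an inactivating *Casp4* allele. The labels do not give the *Casp4* allele of any mouse.

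At day 15 the genotypes overlapped for both genes. *Casp1* had 50.2 and 109 CPM in WT and 124 and 105 in null mice (log2 fold change -0.53 ± 0.33, adjusted p = 0.366, and -0.076 without replicate 1 of WT day 15). *Casp4* had 10.7 and 28.1 CPM in WT and 12.6 and 14.98 in null mice (0.49 ± 0.43, adjusted p = 0.524). The lower WT mouse of both genes was replicate 1, and the *Casp4* value was -0.36 without replicate 2 of WT day 15. Changes from day 0 to day 15 were -0.13 ± 0.34 for *Casp1* (adjusted p = 0.828) and -0.49 ± 0.43 for *Casp4* (adjusted p = 0.489) in WT mice, of which the *Casp1* value was 0.32 and the *Casp4* value 0.049 without replicate 1 of WT day 15. In null mice they were -0.30 ± 0.33 (adjusted p = 0.575) and -0.30 ± 0.44 (adjusted p = 0.669). The 4 other tested genes within 1 Mb of the pair were all lower in both untreated WT mice than in both untreated null mice, a comparison in which 37.1% of all genes did not overlap. At day 15 the genotypes overlapped for each of the 4, and 54.8% of all genes did not overlap. *Casp12*, the next caspase gene of the cluster, had 7.65 and 9.53 CPM in WT day 0 and 11.1 and 17.2 in null day 0.

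*Casp8* (chromosome 1, 58795374 to 58847503, plus strand) had 67.5 and 83.8 CPM in WT day 0 and 95.5 and 112 in null day 0, with the WT mice lower. At day 15 it had 96.3 and 137 CPM in WT and 57.7 and 119 in null mice, which overlapped (log2 fold change 0.40 ± 0.34, adjusted p = 0.509). The value was -0.038 without replicate 1 of *Hsf1* null day 15. Both WT mice at day 15 were above both at day 0 (0.63 ± 0.34, adjusted p = 0.263), and the null change was -0.23 ± 0.34 (adjusted p = 0.677).

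**Figure D3:**
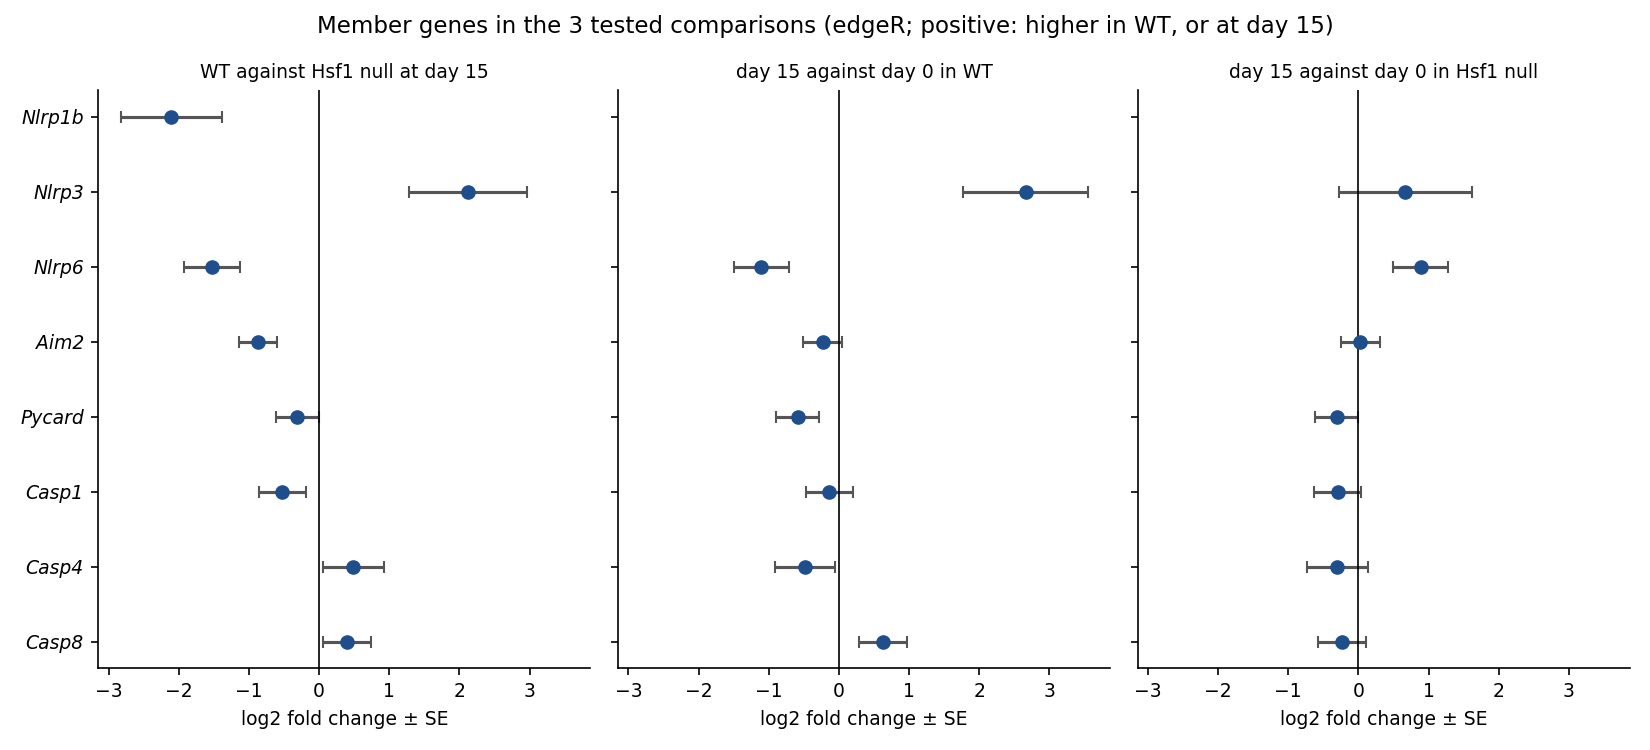
Log2 fold change (points) and SE (bars) from edgeR for the 8 genes between genotypes at day 15 and between days in each genotype. Positive values are higher in WT or at day 15, and *Nlrp1b* is left out of the changes between days because untreated mice chose it. *Nlrp6* was at -1.53 between genotypes at day 15 and had changes of -1.11 in WT and 0.89 in null mice.

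Across the 8 genes, 0 were called between genotypes at day 15 by edgeR at the threshold used throughout (adjusted p under 0.05 with a log2 fold change beyond 1 in size), against 3.17% of all 14371 tested genes. DESeq2 called 2 of 8 (*Nlrp1b* and *Nlrp6*), against 8.41%. At an unadjusted p under 0.05 edgeR counted 4 of 8, against 23.2%, namely *Nlrp1b*, *Nlrp3*, *Nlrp6* and *Aim2*. The genotypes did not overlap for 4 of the 8, a share near the 54.8% of all genes, with *Nlrp3* higher and *Nlrp1b*, *Nlrp6* and *Aim2* lower in WT. The median log2 fold change of the 8 was -0.42, beside 0.04 over all genes. With 2 mice per group an exact permutation test of a single gene cannot go below p = 0.333.

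The changes between days share the day 0 and day 15 mice with the comparisons above. In WT mice, 0 of the 7 genes tested were called by edgeR (7.74% of all genes), 2 had an unadjusted p under 0.05 (27.6%), DESeq2 called 1, *Nlrp6* (12.1%), and days did not overlap for 4 (62.5%). In null mice, edgeR called 0 of 7 (11.8%), 1 had an unadjusted p under 0.05 (32.6%), DESeq2 called 0 (15.3%), and days did not overlap for 3 (61.3%). The difference between the changes was called for 0 of 7 by edgeR (0.00696%), 1 had an unadjusted p under 0.05 (8.62%), and DESeq2 called 1, *Nlrp6* (0.835%). Median changes were -0.23 in WT and -0.23 in null mice, beside 0.00 and 0.05 over all genes.

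Levels were compared between genes per kb of exon. The mean over 8 mice was 70.4 CPM per kb for *Casp1*, 36.5 for *Nlrp6*, 33.3 for *Casp8*, 14.9 for *Pycard*, 10.1 for *Aim2*, 5.19 for *Casp4*, 1.14 for *Nlrp1b* and 0.542 for *Nlrp3*. Only *Casp8* (lowest mouse 19.9) and *Pycard* (highest mouse 19.4) were neighbors in this order whose ranges over mice did not overlap. The order was the same with the longest transcript in place of the exons.

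The genes whose log2 CPM was most like each member over the 8 mice are given as a description, since the mice share group and depth. For *Nlrp1b* they were *Lmtk3* (r = 0.93), *Flna* (r = 0.92) and *Adra2a* (r = 0.92). *Nlrp3* was most like *Alox5ap*, *Pdcd1lg2* and *Smoc1* (r = 0.98 each). For *Nlrp6* they were *Fam134c*, *Tet3* and *Ctns* (r = 0.98 each). *Aim2* was most like *Slc30a4*, *Mthfs* and *Mapk6*, and *Pycard* most like *Apobec2*, *Cnih1* and *Ddo*. The caspases were most like *Zfp235*, *Herc1* and *Emc3* (*Casp1*), *Serpinb8*, *Pcdhga9* and *Shc4* (*Casp4*), and *Cbx1*, *Mphosph10* and *Pkp2* (*Casp8*), with r of 0.92 or above throughout. Among the members themselves the extremes were *Aim2* with *Casp1* (r = 0.74), *Nlrp6* with *Casp8* (r = -0.86) and *Nlrp3* with *Pycard* (r = -0.88).

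The rest of the pathway was read from 65 further genes listed by role, of which 63 were in the counts and 61 were tested. Between genotypes at day 15 edgeR called 5 of the 61 (8.20%), beside the 3.17% of all genes, and DESeq2 called 8 (13.1%, beside 8.41%). *Il1b*, the substrate of caspase-1, was higher in WT, with 11.6 and 72.6 CPM against 1.86 and 4.68 in null mice (log2 fold change 3.66 ± 0.83, adjusted p = 0.046). The neutrophil marker sums of the same mice were 138 and 533 CPM (WT) against 6.67 and 24.1 CPM (null), and the macrophage sums 1675 and 2602 CPM against 425 and 995 CPM. The part of these cells in the *Il1b* values was not tested. *Ninj1*, which ruptures the plasma membrane of dying cells, was also higher in WT, at 50.5 and 53.0 against 22.5 and 15.5 CPM (1.45 ± 0.30, adjusted p = 0.0355). So was *Dpp9*, the inhibitor of NLRP1B, at 67.2 and 70.8 against 29.0 and 36.1 CPM (1.08 ± 0.24, adjusted p = 0.046). *Naip1*, a sensor of bacterial secretion needle proteins, was lower in WT, at 440 and 413 against 1041 and 1229 CPM (-1.41 ± 0.26, adjusted p = 0.0258), as was *Casp14*, the caspase of keratinizing epithelium, at 8.00 and 1.37 against 103 and 38.8 CPM (-3.88 ± 0.67, adjusted p = 0.0231). The count was 0 without either untreated null mouse, replicate 2 of WT day 15 or replicate 1 of null day 15, 3 without either untreated WT mouse, and 7 and 4 without the remaining 2, and it was 0 when only the 4 treated mice were fitted.

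Of the 2 other caspase-1 substrates named here, neither was called by edgeR. *Il18*, whose product is made by epithelium, had 61.1 and 76.6 CPM in WT day 0, 49.5 and 70.4 in null day 0, 43.4 and 20.7 in WT day 15, and 46.4 and 62.1 in null day 15 (-0.76 ± 0.36 between genotypes at day 15, adjusted p = 0.241). Its change was -1.09 ± 0.37 in WT (adjusted p = 0.0885), which DESeq2 called (adjusted p = 0.0458), and -0.14 ± 0.36 in null mice (adjusted p = 0.826). *Gsdmd* had 72.5 and 91.7 CPM in WT day 0, 111 and 60.0 in null day 0, 132 and 246 in WT day 15, and 194 and 154 in null day 15. Its change was 1.21 ± 0.37 in WT (adjusted p = 0.071, DESeq2 0.0159) and 1.01 ± 0.37 in null mice (adjusted p = 0.0911, DESeq2 0.0421). *Nlrc4*, the partner of the NAIP sensors, lay between 15.4 and 31.6 CPM (0.32 ± 0.31 at day 15, adjusted p = 0.577).

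**Figure D4:**
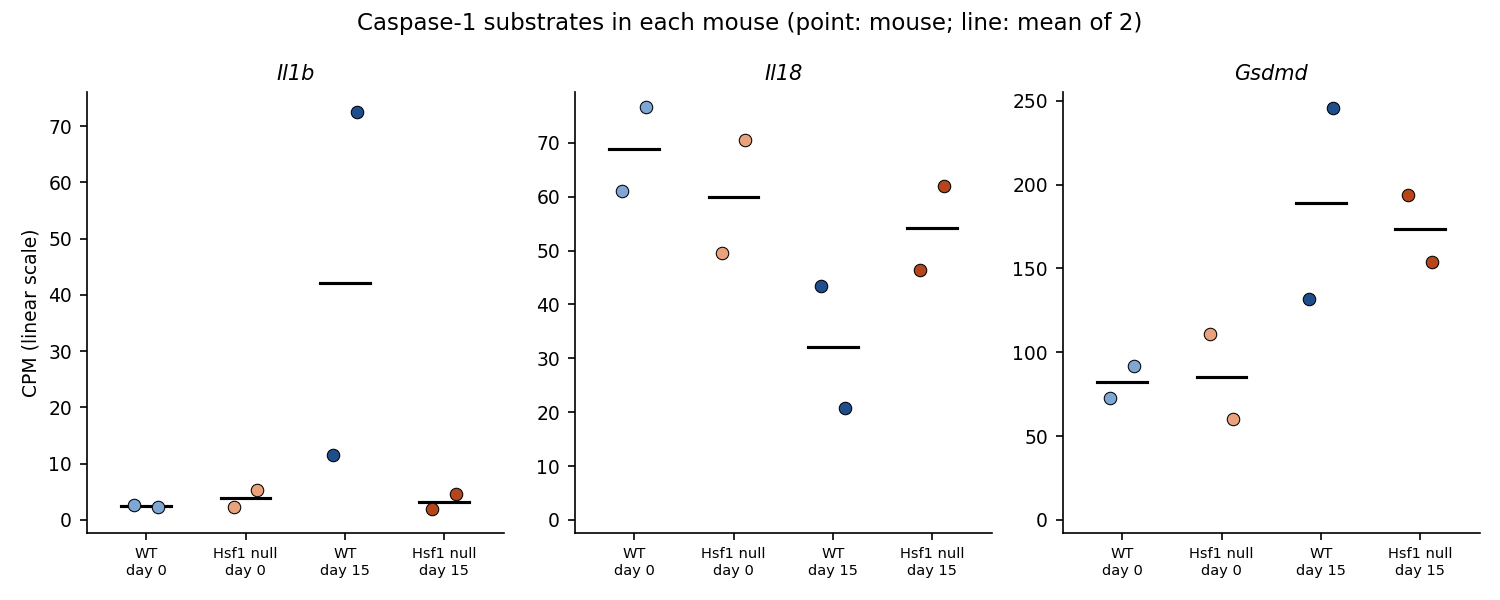
CPM (linear axis) of the caspase-1 substrates *Il1b*, *Il18* and *Gsdmd* in each mouse, with 1 point per mouse and a line at the mean of 2 mice. *Il1b* reached 11.6 and 72.6 CPM in WT day 15 and at most 5.39 CPM in the other mice, while *Gsdmd* overlapped between genotypes at day 15 and *Il18* was lower in both WT mice without being called.

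From day 0 to day 15 in WT mice 9 of the 61 were called (14.8%, beside 7.74% of all genes), and DESeq2 called 18 (29.5%, beside 12.1%). The 5 that rose were *Il1b* (4.03 ± 0.87, adjusted p = 0.0265), the IL-18 inhibitor *Il18bp* (2.55 ± 0.52, adjusted p = 0.0223), the necroptosis genes *Ripk3* (1.59 ± 0.36) and *Mlkl* (1.22 ± 0.32), and the Toll-like receptor adaptor *Myd88* (1.37 ± 0.32). The 4 that fell were *Casp14* (-4.30 ± 0.68), *Nlrp10* (-2.73 ± 0.61), *Naip6* (-1.24 ± 0.33) and *Naip2* (-1.23 ± 0.31). Without either untreated WT mouse or replicate 2 of WT day 15 the count was 1, and without replicate 1 of WT day 15 it was 15.

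In null mice 8 of the 61 were called (13.1%, beside 11.8% of all genes), and DESeq2 called 14 (23.0%, beside 15.3%). *Ripk3* (1.45 ± 0.37, adjusted p = 0.035) and *Naip1* (1.22 ± 0.26, adjusted p = 0.0211) rose. Among those that fell were *Tlr4*, the lipopolysaccharide receptor (-1.89 ± 0.54), *Casp12* (-1.86 ± 0.54), *Naip6* (-1.56 ± 0.33), *Ninj1* (-1.47 ± 0.30) and *Nek7*, a cofactor of NLRP3 (-1.02 ± 0.26). The count was 0 without replicate 2 of null day 0 or replicate 2 of null day 15, 4 without replicate 1 of null day 15, 5 without either untreated WT mouse, and 10 without any 1 of the other 3. The *Naip* genes share 19.1% to 36.9% of their 50-base stretches with other genes, so their reads may be split. The difference between the changes was called for 0 of 61 by edgeR, with 8 at an unadjusted p under 0.05 (8.62% of all genes), and for 2 by DESeq2 (3.28%, beside 0.835% of all genes), *Il1b* (4.10 ± 1.22, DESeq2 adjusted p = 0.0125) and *Naip1* (-1.48 ± 0.36, DESeq2 adjusted p = 0.014).

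By role, the calls were spread over the lists, whose counts stand beside 3.17% of all genes called between genotypes at day 15, 7.74% in the WT change and 11.8% in the null change. A single call in null mice is near or below that share in the lists of 9, 10 or 13 genes. Genes that were not called are not shown to be unchanged. Of 13 tested other sensors, 1 was called lower in WT than null at day 15, 3 were called as falling in WT, and in null mice 1 as rising and 1 as falling. Of 13 regulators such as *Dpp9* and *Nek7*, 1 was called higher in WT than null and 1 was called as falling in null mice. The 9 substrates and outputs had 2 calls higher in WT than null, 2 of a rise in WT and 1 of a fall in null mice. Of 7 other caspases 1 was called lower in WT than null, 1 as falling in WT, and *Casp12* as falling in null mice. The 10 caspase-8 partners and necroptosis genes had 2 calls of a rise in WT and 1 in null mice, and the 9 priming genes had 1 call of a rise in WT and 1 of a fall in null mice. Between genotypes at day 15 edgeR called 0 of these 10 and 0 of these 9, with 4 and 2 at an unadjusted p under 0.05 (23.2% of all genes) and 0 and 1 called by DESeq2 (8.41% of all genes).

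Total counts were between 2553348 and 12440257 per mouse, with replicate 2 of WT day 0 and of *Hsf1* null day 0 the smallest. The targeted gene matched the labels, with *Hsf1* at 36.5 to 50.5 CPM in the WT mice and 9.09 to 14.0 CPM in the null mice.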

How the data were processed

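Reads from poly(A) RNA of the distal colon were aligned to mm10 (the GRCm38 assembly) by the authors with STAR. They deposited whole-number counts per gene symbol, with 15859 genes that each reach at least 6 counts in 1 mouse. The counting program, its strand setting and the annotation are not given in the sources used here. A second deposited table, of counts divided by the size factors of DESeq2, was not used. The reference is a C57BL/6J genome and the mice are BALB/c x 129SvEV.

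Mice were grouped by the labels. Counts were analyzed with edgeR 4.0.16 in R 4.3.3 (quasi-likelihood test, TMM normalization, 1 model of the 4 groups over all 8 mice, 14371 genes with a mean normalized count above 5, Benjamini-Hochberg adjustment within a comparison). A gene was called when its adjusted p was under 0.05 and its log2 fold change exceeded 1 in either direction. CPM uses the TMM-adjusted library sizes, and a count of 0 is read as at most 3 counts. The fits were tested on simulated data before use. Gene positions are from GENCODE M21 on GRCm38, to which 99.2% of symbols matched, and promoters are from RefSeq.

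The 8 genes, the 65 pathway genes and the marker lists were chosen with earlier results of these data known. Genes named are the 8, the pathway genes called, *Il1b*, *Il18*, *Gsdmd*, *Nlrp1a* and *Nlrc4*, the 3 genes most like each of the 8, and neighbors called or separate in all mice. *Nlrp1c-ps*, *Casp12* at day 0, *Ngp* and *Gm45205* were named after their values were seen. *Casp12* is also a pathway gene that was called. Values of 1 other pathway gene are not reported here. Alternatives were DESeq2 1.42.0, its size factors in edgeR, no filter or filterByExpr, no fold threshold, the replicate number as a block, libraries thinned to equal totals, fits with only the groups compared, and each mouse left out. A crossed block and the *Nlrp1* sum were added after seeing the data. The search for active-site motifs in the caspase proteins was not run. Figures used matplotlib 3.10.9 and alignments Biopython 1.88.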

Additional observations from a re-analysis of the deposited data

Results flagged for a closer look

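The mean of *Nlrp1b* was lower at day 15 than at day 0 in WT and higher in *Hsf1* null mice. Both WT mice at day 15 (2.17 and 3.80 CPM, mean 2.99) lay below both untreated WT mice (15.1 and 9.53 CPM), and both *Hsf1* null mice at day 15 (21.9 and 4.01 CPM) lay above both untreated null mice (0.411 and 0.719 CPM). No test of the difference between these changes is given. The gene was chosen for a high WT and a low null value at day 0, so these directions are not independent of the choice. With 2 mice per group no mouse could be called an outlier.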

How the results depend on the processing

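For the 8 genes, 489 of 515 alternative values kept their direction and their side of the threshold, 14 passed it newly and 12 changed sign. The counts of the 8 genes called, 0 in each comparison, moved as follows. At day 15 between genotypes the count was 2 with DESeq2, 1 with the crossed replicate block and 0 to 2 when 1 mouse was left out. In WT it was 1 with DESeq2, 1 with only the groups compared, 2 with the crossed block and 0 to 1 with a mouse left out. In null mice it was 0 to 1 and for the difference between changes 0 to 1 with a mouse left out, and 1 with DESeq2 for the latter. The pathway counts were 8 (DESeq2), 3 (replicate block), 3 (thinned counts) and 0 (only the groups compared) between genotypes at day 15, against 5, and 0 to 7 with a mouse left out. In WT they were 18 (DESeq2), 4 (only the groups compared) and 15 (crossed block), against 9, and 1 to 15 with a mouse left out, and in null mice 14 (DESeq2), against 8, and 0 to 10 with a mouse left out. A lone mouse was assumed to vary like the other groups. The log2 ratio of *Nlrp1b* at day 0 was 4.08 to 4.91 with a mouse left out and 4.40 with thinned counts. The gene was chosen on this difference, so these values describe it and do not test it.

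With a mouse left out, values that changed sign ranged as follows. Between genotypes at day 15 *Pycard* ranged from -0.77 to 0.038 (positive without WT day 15 replicate 2), *Casp4* from -0.36 to 1.03 (negative without WT day 15 replicate 2) and *Casp8* from -0.038 to 1.02 (negative without *Hsf1* null day 15 replicate 1). In the WT change *Casp1* ranged from -0.79 to 0.32 and *Casp4* from -1.34 to 0.049 (both positive without WT day 15 replicate 1). In the null change *Aim2* ranged from -0.19 to 0.26 (negative without null day 0 replicate 1, and -0.11 without null day 15 replicate 2), was -0.050 with thinned counts, and *Casp8* ranged from -0.85 to 0.21 (positive without null day 15 replicate 1). For the difference between changes *Pycard* ranged from -0.74 to 0.069 and *Casp1* from -0.50 to 0.61 (signs changed without WT day 15 replicate 2), and *Casp4* from -1.04 to 0.35 (positive without WT day 15 replicate 1). None of these passed the threshold, and the cause was not tested.

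Same-numbered mice are different animals that share only a number. Their deviations correlated between -0.29 and 0.15 over the 6 pairs of groups, and the replicate block moved the calls over all genes at day 15 from 455 to 343, in WT from 1112 to 868, in null mice from 1692 to 1505 and for the difference from 1 to 2. The crossed block, with the untreated WT mice exchanged, gave 1314, 1856, 2296 and 54. The replicate block changed no call of the 8 genes, whereas the crossed block did, as given above. Depth limits *Nlrp3* and the untreated null values of *Nlrp1b*, where 3 counts are 1.08 to 1.19 CPM in the smallest libraries.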
